A study of Rattus norvegicus with 18 samples.

Results

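Integrins are cell-surface receptors made of an alpha and a beta subunit, and laminins are basement membrane proteins made of an alpha, a beta and a gamma chain. The genes of both families were followed here in the tibialis anterior of rats, a shin muscle made largely of fast fibres. Members were all entries whose symbol is Itga or Itgb followed by a number, or Lama, Lamb or Lamc followed by 1 digit. Of 30560 entries, 30 met this rule: 11 integrin alpha, 8 integrin beta and 11 laminin genes. Integrin alpha genes with letters in their symbol, such as Itgav and Itgam, lie outside it and are given only as a companion list. RNA of 18 libraries was sequenced: 6 of 9-month-old rats labelled p16-null DMD, 3 of 9-month-old rats labelled DMD, 3 of 9-month-old wild-type (WT) rats, 3 of 18-month-old WT rats and 3 of 3-month-old WT rats. DMD rats are a model of Duchenne muscular dystrophy, in which dystrophin is lost, and p16 is a cell cycle inhibitor encoded by Cdkn2a. The labels give the genotype, the age and the tissue, but neither the alleles nor whether each library came from a separate rat, so the p-values speak only for the spread among these libraries, part of which may be technical.

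In a muscle fibre, dystrophin and dystroglycan tie the cytoskeleton to laminin in the basement membrane. The integrin made of Itga7 and Itgb1 binds the same laminin and is known as a parallel linkage. Adult muscle fibres are known for laminin with the Lama2 chain, and loss of either LAMA2 or ITGA7 causes muscular dystrophy in humans. Other integrins bind collagen, fibronectin or, on leukocytes, adhesion molecules of the vessel wall. In RNA of whole muscle a smaller number of cells of a type and less RNA per cell cannot be told apart.

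Promoters are shown for 3 members: Itga5 and Itgb1, which together form the fibronectin receptor and were both higher in DMD muscle, and Lama2, the main laminin alpha chain of muscle fibres. Each window runs from 250 bases before to 50 bases after the start of the gene and is taken from RefSeq on the GRCr8 build: Itga5 at chr7:136381256-136381555 on the minus strand, Itgb1 at chr19:73602027-73602326 on the plus strand and Lama2 at chr1:19491896-19492195 on the plus strand. Capitals mark GC boxes, the letters GGGCGG on either strand.
Itga5: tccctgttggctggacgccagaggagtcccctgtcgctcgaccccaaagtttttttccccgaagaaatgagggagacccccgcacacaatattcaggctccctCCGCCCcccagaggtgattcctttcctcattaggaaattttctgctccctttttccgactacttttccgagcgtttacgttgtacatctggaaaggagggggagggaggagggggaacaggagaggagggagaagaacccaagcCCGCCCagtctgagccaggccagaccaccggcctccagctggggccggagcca
Itgb1: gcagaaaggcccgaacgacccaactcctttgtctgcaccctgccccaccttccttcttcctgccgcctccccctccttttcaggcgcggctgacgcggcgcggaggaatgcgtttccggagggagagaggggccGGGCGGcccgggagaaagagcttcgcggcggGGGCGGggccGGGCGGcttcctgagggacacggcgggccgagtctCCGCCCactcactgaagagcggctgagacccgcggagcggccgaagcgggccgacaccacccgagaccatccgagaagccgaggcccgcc
Lama2: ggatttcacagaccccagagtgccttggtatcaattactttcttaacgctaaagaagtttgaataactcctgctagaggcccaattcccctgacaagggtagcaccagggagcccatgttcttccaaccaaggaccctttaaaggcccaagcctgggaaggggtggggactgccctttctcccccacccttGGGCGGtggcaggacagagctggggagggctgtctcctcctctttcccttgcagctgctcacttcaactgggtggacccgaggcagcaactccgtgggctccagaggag
The Itgb1 window held 4 GC boxes, the Itga5 window 2 and the Lama2 window 1. A GC box was found in 13 of the 23 members that have a window and in 33.1% of all 33469 windows of the same length. The ETS-type core GAGGAA was found in 9 of the 23 against 27.6% of all windows, and the E-box CANNTG in 14 against 72.1%. The AP-1 letters TGANTCA were found in 1 member window, that of Lama3, against 7.33% of all windows. Both strands were searched, the motifs can overlap each other, and a match is a description of the letters only.

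Libraries held 9.61 M to 21.99 M estimated counts. Levels are given as CPM, counts set to 1 common library size by TMM over all 18 libraries, and as the deposited TPM, which is scaled by gene length, wherever genes are compared with each other. For p16-null DMD the 3 values given are the lowest, the median and the highest of 6 libraries, and for every other group they are the 3 libraries in replicate order. Dmd stood at 30.9 to 54.0 CPM in p16-null DMD and 31.4 to 44.3 CPM in DMD, against 114 to 167 CPM in WT muscle at 9 months. Cdkn2a counts were 10.1 to 15.3 CPM in p16-null DMD, 10.7 to 19.4 CPM in DMD and 0 to 0.184 CPM in WT muscle, and since they pool the p16 and Arf transcripts they do not check the p16-null label. Changes are log2 fold changes ± SE, with p adjusted over all genes tested. The 6 muscle fibre markers in the table summed to 25880 to 55730 CPM in p16-null DMD, 31060 to 47910 CPM in DMD and 117100 to 133900 CPM in WT muscle at 9 months.

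DMD was first set against WT at 9 months, to ask which members differ in dystrophic muscle. Most of the integrin genes outside the group listed here as laminin-binding were higher in DMD muscle, as were 4 laminin alpha chains. The 3 alpha subunits of that group, Itga3, Itga6 and Itga7, did not pass the test. Of 29 members tested, 15 rose and 2 fell (edgeR quasi-likelihood test, adjusted p under 0.05). Over all genes tested 48.3% passed, 26.4% higher and 21.8% lower, so the share of members called is near that of all genes and their split lies more to the higher side. The median log2 fold change was 0.62 for the members, beside 0.11 for all genes. DMD and WT libraries did not overlap for 14 members with DMD above and 2 with DMD below, beside 30.7% and 25.7% of all genes. Scaling moved the split of calls: by library totals 22 members were higher and 0 lower. Over all 14801 genes 7691 were then higher and 1240 lower, with a median of 0.76. Changes below are those on the TMM scale, relative to its median.

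**Figure D1:**
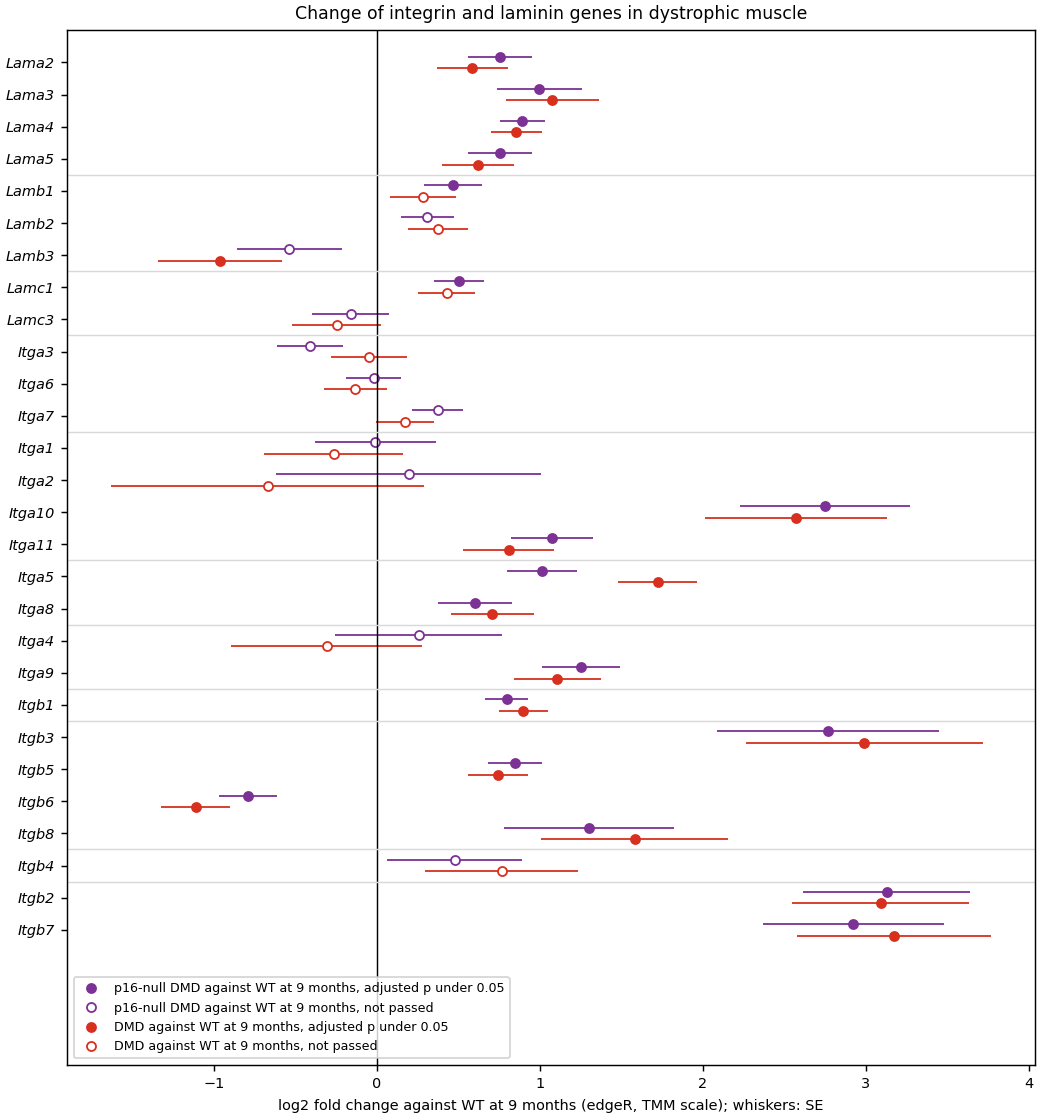
Log2 fold change (x axis, whiskers SE) of 28 of the tested members in p16-null DMD and in DMD muscle, each against the same WT libraries of 9 months, so the 2 sets of points are not independent. Filled points passed an adjusted p of 0.05. Itgb2, Itgb3, Itgb7 and Itga10 lie farthest to the right and Itgb6 farthest to the left in both comparisons with a filled point.

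Laminin alpha chains were examined first. Lama2 stood at 124, 168 and 197 CPM in p16-null DMD, 184, 120.4 and 137 CPM in DMD and 86.4, 84.3 and 126 CPM in WT muscle. The WT library of replicate 3 reached the lower DMD values, so the groups overlapped, and the log2 fold change in DMD was 0.59 ± 0.22, adjusted p = 0.0372. The call was lost without DMD replicate 1 or 3 or without WT replicate 1 or 2, with values down to 0.38 and adjusted p up to 0.185.

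Lama4, the chain of vessel and embryonic basement membranes, stood at 77.1, 91.2 and 112 CPM in p16-null DMD, 101, 79.2 and 93.8 CPM in DMD and 48.2, 53.3 and 50.4 CPM in WT muscle. Every dystrophic library lay above every WT library, and Lama4 rose by 0.86 ± 0.15 on the log2 scale (adjusted p = 0.000368). Lama5, found in vessels and at the neuromuscular junction, stood at 48.4, 64.0 and 89.6 CPM in p16-null DMD, 52.1, 67.9 and 58.5 CPM in DMD and 43.0, 34.8 and 38.4 CPM in WT muscle, and rose by 0.62 ± 0.22, adjusted p = 0.0302. Its groups also did not overlap, as in 56.4% of all genes, but the call was lost without DMD replicate 2 or 3 or WT replicate 2 or 3 (adjusted p up to 0.0976). Endothelial markers, as a sum over 6 genes, were 469 to 604 CPM in p16-null DMD, 482 to 563 CPM in DMD and 484 to 614 CPM in WT muscle, with no marker at 0, and their part in the Lama4 and Lama5 values was not tested.

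Lama3, known best from epithelial basement membranes, was a low gene at 9.28, 12.6 and 19.9 CPM in p16-null DMD, 15.8, 13.7 and 13.6 CPM in DMD and 7.56, 5.40 and 7.35 CPM in WT muscle. All dystrophic libraries lay above the WT libraries, with a log2 fold change of 1.08 ± 0.29, adjusted p = 0.00618 in DMD. The epithelial markers in the table, 3 genes, summed to at most 4.08 CPM in any library of 9 months. Lama1, a chain of early embryonic basement membranes, was close to absent: over a whole group its estimated counts summed to 1 in p16-null DMD, 5 in DMD, 3 in WT at 9 months, 18 in WT at 18 months and 0 in WT at 3 months, where a count of 0 allows up to 3 counts. It was removed by the filter on low counts in each fit.

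Of the beta and gamma chains, which complete the laminin trimer, only Lamb3 passed in the main fit, and this rests on the scaling and on other settings. Lamb3 passed in 4 of 11 settings run on all libraries. On the TMM scale it missed the threshold with the replicate block (edgeR, adjusted p = 0.112) and without a filter (adjusted p = 0.0647). By library totals (edgeR) Lamb2 changed by 1.02 (adjusted p = 0.000333) and Lamb1 by 0.93 (adjusted p = 0.00169), while Lamb3 did not pass. Lamb2, the beta chain of the adult neuromuscular junction, stood at 213, 263 and 356 CPM in p16-null DMD, 267, 328 and 266 CPM in DMD and 245, 201 and 219 CPM in WT muscle. The DMD libraries lay above the WT libraries but the change of 0.38 ± 0.18, adjusted p = 0.102 did not pass. Lamb1, the more widespread beta chain, stood at 80.1, 101 and 121 CPM in p16-null DMD, 115, 64.3 and 87.3 CPM in DMD and 72.4, 72.8 and 75.2 CPM in WT muscle with overlap between DMD and WT, and a log2 fold change of 0.28 ± 0.20, adjusted p = 0.261. Lamc1, the gamma chain of most laminins, stood at 233, 297 and 327 CPM in p16-null DMD, 312, 215 and 287 CPM in DMD and 202, 184 and 222 CPM in WT muscle. It overlapped between DMD and WT in replicate 2 of DMD, and its change of 0.43 ± 0.17, adjusted p = 0.0544 missed the threshold. It passed in 5 of 11 settings run on all libraries, among them library totals at 1.08 (adjusted p = 0.00021), and also without DMD replicate 2 at 0.58 (adjusted p = 0.0141) or p16-null DMD replicate 6 at 0.43 (adjusted p = 0.0465).

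Lamb3, a partner of Lama3 in epithelial laminin, did not rise with it. Lamb3 stood at 2.72, 4.87 and 5.88 CPM in p16-null DMD, 3.77, 2.77 and 3.37 CPM in DMD and 9.82, 4.86 and 4.59 CPM in WT muscle. It was lower in DMD by the test (-0.96 ± 0.38, adjusted p = 0.0488), but the call was lost in 7 of 12 fits with 1 library left out: each DMD library, WT replicate 1 and p16-null DMD replicates 2, 5 and 6. Without WT replicate 1, the library with 9.82 CPM, the value was -0.50 (adjusted p = 0.315). By library totals (edgeR) the Lamb3 value was -0.30 (adjusted p = 0.529). Lamc3 stood at 7.28, 8.48 and 10.4 CPM in p16-null DMD, 4.76, 9.81 and 10.1 CPM in DMD and 9.91, 7.83 and 11.5 CPM in WT muscle, with the groups overlapping and a change of -0.25 ± 0.27, adjusted p = 0.484.

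**Figure D2:**
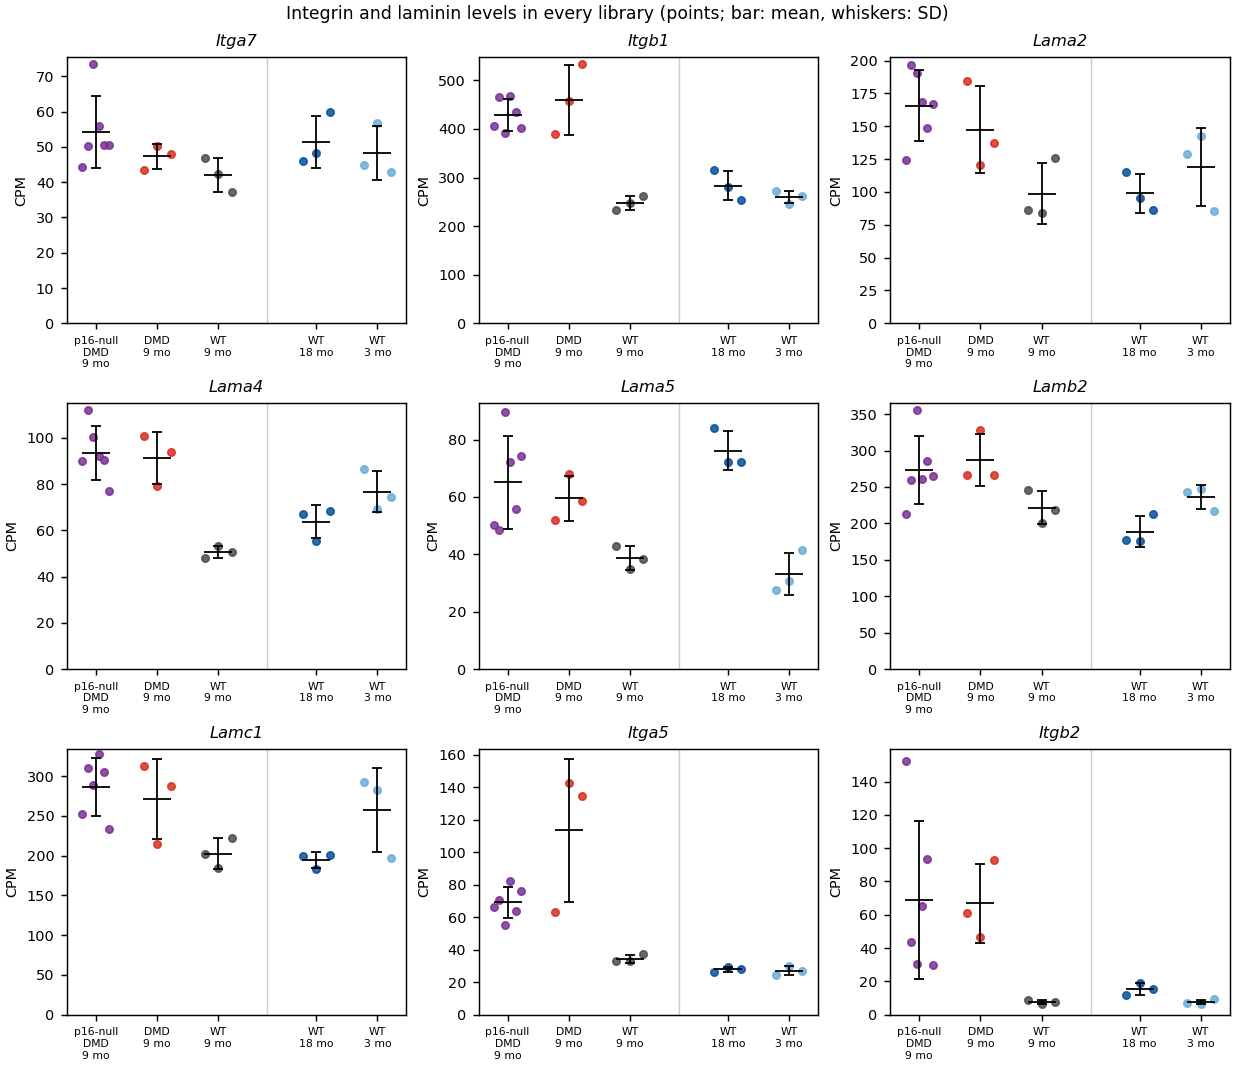
CPM on 1 TMM scale (y axis) of 9 members in every library, as points, with the mean as a bar and the SD as whiskers, n = 6 for p16-null DMD and n = 3 for the other groups. Itgb1, Lama4, Itga5 and Itgb2 are higher in every dystrophic library than in every WT library of 9 months, Itga7 overlaps, and Lama5 also separates 18 from 3 months.

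Among the 3 alpha subunits listed here as laminin-binding, Itga7 is the one known for muscle fibres. It stood at 44.4, 50.5 and 73.6 CPM in p16-null DMD, 43.5, 50.3 and 48.0 CPM in DMD and 46.9, 42.4 and 37.1 CPM in WT muscle. WT replicate 1 lay within the DMD values, and the log2 fold change was 0.17 ± 0.18, adjusted p = 0.453. The 6 muscle fibre markers tested all fell in DMD, with the sums given above, and their part in the Itga7 value was not tested. Itga6, which is also found on endothelial and Schwann cells, stood at 43.6, 50.4 and 71.7 CPM in p16-null DMD, 58.2, 37.4 and 54.4 CPM in DMD and 50.1, 56.9 and 58.0 CPM in WT muscle. Its groups overlapped and it differed by -0.13 ± 0.19, adjusted p = 0.606. Itga3 stood at 7.08, 11.2 and 11.5 CPM in p16-null DMD, 9.88, 14.9 and 14.3 CPM in DMD and 12.7, 13.0 and 14.9 CPM in WT muscle, and differed by -0.049 ± 0.23, adjusted p = 0.883. Thus none of the 3 passed on the TMM scale, but this rests on the scaling: by library totals Itga7 changed by 0.82 (adjusted p = 0.00158), and Itga6 by 0.52 (adjusted p = 0.0432), the opposite sign to the TMM value.

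**Figure D3:**
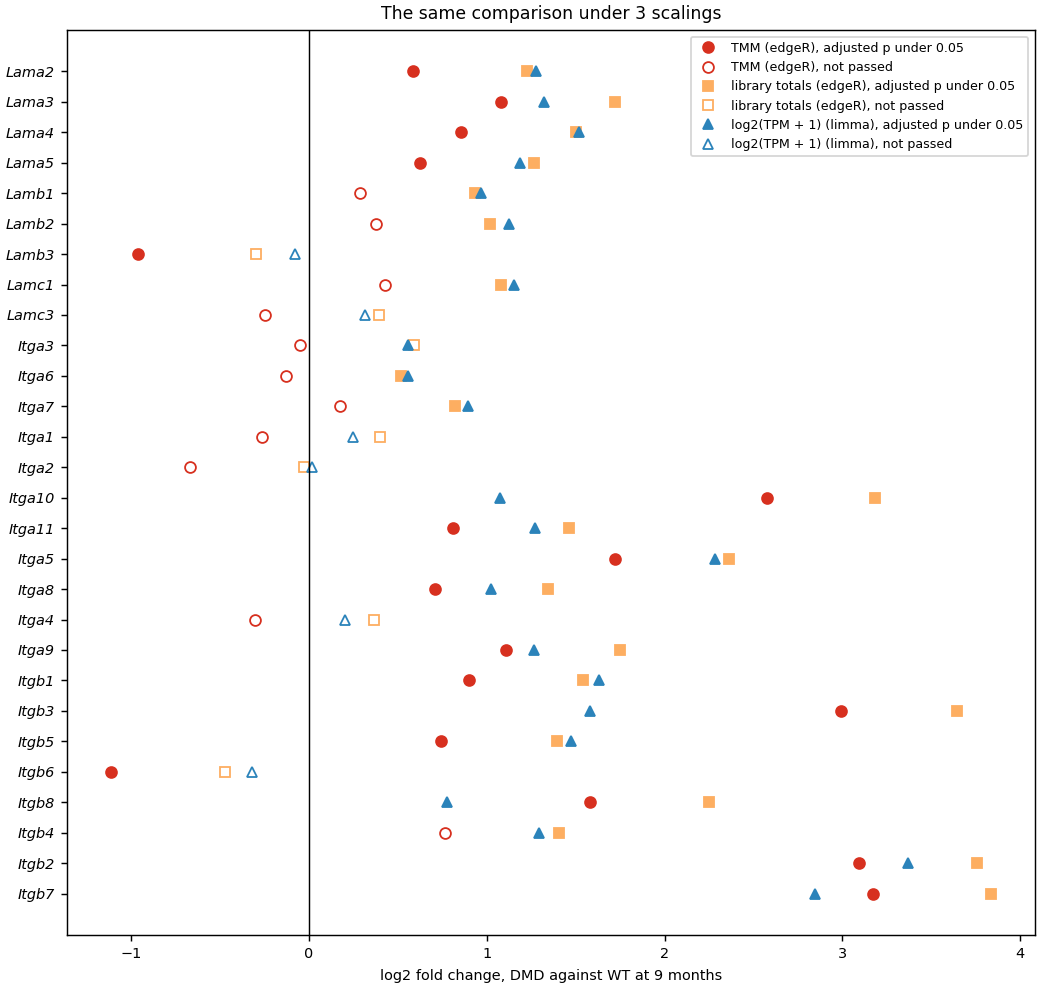
Log2 fold change of 28 of the tested members in DMD against WT muscle at 9 months (x axis) under TMM scaling, library totals and log2(TPM + 1), with filled symbols where the adjusted p was under 0.05. By library totals every point lies to the right of its TMM point. Itga6 and Itga7 are filled off the TMM scale and open on it, and Itgb6 and Lamb3 the reverse.

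Itgb1 is the common partner of the laminin-, collagen- and fibronectin-binding alpha subunits. It stood at 393, 419.7 and 468 CPM in p16-null DMD, 389, 457 and 533 CPM in DMD and 233, 247 and 262 CPM in WT muscle. All dystrophic libraries lay above all WT libraries, and it rose by 0.90 ± 0.15, adjusted p = 0.000198 in DMD. Itgb1 was also the most abundant member per length, at 237 ± 19.9 TPM in p16-null DMD, 257 ± 53 TPM in DMD and 81.6 ± 10.02 TPM in WT muscle (SD, n = 6, 3 and 3). The libraries' ratio of Itgb1 to Itga7 TPM averaged 8.18 ± 1.5 in p16-null DMD, 9.80 ± 1.2 in DMD and 6.06 ± 1.1 in WT muscle, a description with no test.

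Itga5, which pairs with Itgb1 to bind fibronectin, showed the smallest p of the members. It stood at 55.2, 68.3 and 82.4 CPM in p16-null DMD, 63.2, 143 and 135 CPM in DMD and 33.0, 32.8 and 37.4 CPM in WT muscle. Each DMD library was above each WT library, although DMD replicate 1 was less than the other DMD libraries, and Itga5 rose by 1.72 ± 0.24, adjusted p = 4.73e-05. The ligand gene Fn1 rose too, by 1.88 ± 0.27, adjusted p = 5.18e-05. Itga8, a receptor for nephronectin and fibronectin, stood at 11.2, 12.5 and 14.0 CPM in p16-null DMD, 19.0, 10.5 and 10.8 CPM in DMD and 7.56, 6.62 and 10.5 CPM in WT muscle and rose by 0.71 ± 0.26, adjusted p = 0.0322, a call lost without DMD replicate 1 or WT replicate 1 or 2 (adjusted p up to 0.225, values down to 0.36). Npnt, the gene of nephronectin, rose by 1.01 ± 0.21, adjusted p = 0.00115.

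Of the 4 collagen-binding alpha subunits, 2 rose. Itga10, known from cartilage, was low at 3.18, 4.80 and 6.79 CPM in p16-null DMD, 1.92, 7.68 and 3.37 CPM in DMD and 0.521, 1.08 and 0.643 CPM in WT muscle, and rose by 2.57 ± 0.56, adjusted p = 0.00149 with no overlap between groups. Itga11, known from fibroblasts, stood at 20.4, 26.2 and 35.9 CPM in p16-null DMD, 30.8, 14.8 and 23.0 CPM in DMD and 14.3, 10.5 and 14.3 CPM in WT muscle, and rose by 0.81 ± 0.28, adjusted p = 0.0269, a call lost without DMD replicate 1 or 3 or WT replicate 2 (adjusted p up to 0.149, values down to 0.52). The 4 fibroblast markers all rose and summed to 1870.0 to 5888 CPM in p16-null DMD, 1857 to 3415 CPM in DMD and 468 to 571 CPM in WT muscle; their part in these changes was not tested. Itga1 ran from 3.84 to 18.5 CPM in DMD and from 12.6 to 17.0 CPM in WT and did not pass (-0.26 ± 0.43, adjusted p = 0.637). Itga2, known from platelets and epithelia, had 0 to 1.01 CPM in p16-null DMD, 0.213 to 0.509 CPM in DMD and 0.348 to 1.08 CPM in WT muscle (-0.67 ± 0.96, adjusted p = 0.593).

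Itga9, a receptor for tenascin and osteopontin, stood at 11.2, 12.8 and 16.3 CPM in p16-null DMD, 15.6, 9.12 and 11.01 CPM in DMD and 5.21, 3.92 and 7.35 CPM in WT muscle, with no overlap between groups, and rose by 1.11 ± 0.27, adjusted p = 0.00315. Osteopontin itself, Spp1, rose by 5.37 ± 0.91, adjusted p = 0.000232, and tenascin C, Tnc, by 1.86 ± 0.47, adjusted p = 0.00448. Itga4, the leukocyte receptor for Vcam1, stood at 4.74, 12.6 and 25.9 CPM in p16-null DMD, 6.89, 3.04 and 15.5 CPM in DMD and 8.69, 13.1 and 9.83 CPM in WT muscle; DMD replicates ran both above and below the WT libraries, and it did not pass (-0.31 ± 0.59, adjusted p = 0.694).

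The beta subunits that pair with Itgav, and bind RGD sequences or activate latent TGF-beta, went both ways. Itgb5 stood at 72.5, 98.5 and 122 CPM in p16-null DMD, 92.5, 84.0 and 102 CPM in DMD and 61.6, 47.3 and 58.3 CPM in WT muscle and rose by 0.74 ± 0.18, adjusted p = 0.00388. Itgb3, also a platelet and osteoclast subunit, was low at 1.58, 2.78 and 4.79 CPM in p16-null DMD, 2.20, 1.97 and 6.17 CPM in DMD and 0.174, 0.945 and 0.276 CPM in WT muscle and rose by 2.99 ± 0.73, adjusted p = 0.00337. The 4 platelet markers summed to 25.8 to 52.7 CPM in p16-null DMD, 39.3 to 61.5 CPM in DMD and 9.65 to 13.8 CPM in WT muscle, of which Pf4 made up nearly all, Ppbp was at 0 in every DMD and WT library and Gp1bb in every WT library; their part in the Itgb3 change was not tested. Itgb8 stood at 2.18, 3.34 and 4.74 CPM in p16-null DMD, 7.96, 1.87 and 2.86 CPM in DMD and 2.35, 0.675 and 1.10 CPM in WT muscle, with overlap, and rose by 1.58 ± 0.57, adjusted p = 0.0334, a call lost without DMD replicate 1 or WT replicate 2 or 3 (adjusted p up to 0.285, values down to 0.73). Itgb6, known as an epithelial subunit, was the exception, at 15.6, 20.7 and 28.7 CPM in p16-null DMD, 17.8, 18.2 and 15.5 CPM in DMD and 33.5, 43.9 and 34.6 CPM in WT muscle. Every dystrophic library lay below every WT library, and Itgb6 fell, with a log2 fold change of -1.11 ± 0.21, adjusted p = 0.00054, although by library totals the value was -0.47 (adjusted p = 0.0625).

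Itgb4, which joins Itga6 in hemidesmosomes and is found on Schwann cells, stood at 37.0, 65.9 and 136 CPM in p16-null DMD, 150.5, 63.7 and 54.3 CPM in DMD and 50.2, 56.3 and 52.7 CPM in WT muscle. DMD replicate 1 was far above the other DMD libraries, at 150.5 CPM, and also had the highest Schwann cell marker sum, 279.6 CPM against 61.4 and 47.1 CPM in the other DMD libraries. Among p16-null DMD libraries replicate 3 had both the highest Itgb4, 136 CPM, and the highest Schwann cell sum, 168 CPM. Itgb4 did not pass in DMD (0.77 ± 0.47, adjusted p = 0.194), although by library totals (edgeR) the value was 1.41 (adjusted p = 0.0234). The part of Schwann cell RNA in the spread of Itgb4 was not tested.

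Itgb2 and Itgb7, the subunits of leukocyte integrins, had the largest folds among members with more than 10 CPM in a group. Itgb2 stood at 29.7, 54.4 and 152 CPM in p16-null DMD, 61.2, 46.6 and 92.7 CPM in DMD and 9.13, 6.48 and 7.81 CPM in WT muscle. The lowest dystrophic library was above the highest WT library, and Itgb2 rose by 3.09 ± 0.54, adjusted p = 0.000308. Itgb7 stood at 6.45, 10.03 and 33.1 CPM in p16-null DMD, 12.1, 13.5 and 23.1 CPM in DMD and 2.35, 0.945 and 1.93 CPM in WT muscle and rose by 3.17 ± 0.59, adjusted p = 0.000491. Both peaked in p16-null DMD replicate 1, the library with the highest sum of the 10 leukocyte markers, 1693 CPM. That sum ran from 472 to 1693 CPM in p16-null DMD, 592 to 1149 CPM in DMD and 164 to 174 CPM in WT muscle, where 1 marker, Cd79b, was at 0 in every library. All 9 leukocyte markers tested rose, and their part in the Itgb2 and Itgb7 changes was not tested.

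Of the alpha subunits outside the rule, 4 of 7 tested rose and 0 fell. For this list and those that follow, the shares over all genes were 26.4% higher and 21.8% lower. Itgam, which pairs with Itgb2 on myeloid cells, rose by 2.71 ± 0.62, adjusted p = 0.00211. Itgal, its partner on lymphocytes, rose by 2.07 ± 0.57, adjusted p = 0.00768. Itgax, a further Itgb2 partner, rose by 2.06 ± 0.50, adjusted p = 0.00318, and Itgav, the partner of Itgb3, Itgb5, Itgb6 and Itgb8, by 0.51 ± 0.14, adjusted p = 0.00594. In the pathway behind the integrin tail, 15 of 30 tested rose and 2 fell among focal adhesion genes, with Src, a tyrosine kinase, at 1.29 ± 0.17, Actn1, an actin cross-linker, at 1.26 ± 0.20 and Zyx, a focal adhesion scaffold, at 1.15 ± 0.19. The 2 talins, which switch integrins on, went opposite ways: Tln1 rose by 0.71 ± 0.19, adjusted p = 0.00683 and Tln2, enriched in mature muscle, fell with -0.79 ± 0.19, adjusted p = 0.00315. By library totals this list had 25 higher and 0 lower, beside 7691 higher and 1240 lower of all 14801 genes.

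Among other ligands 6 of 8 tested rose and 0 fell, with Spp1 at the largest fold, given above. The 3 with the smallest p were the leukocyte adhesion molecules Vcam1 at 2.47 ± 0.28 and Icam1 at 2.47 ± 0.32, and Fn1. Of other basement membrane genes 6 of 11 tested rose and 1 fell: Col18a1, Col4a2 and Col4a1 rose by 2.18 ± 0.20, 1.53 ± 0.18 and 1.46 ± 0.19, while Col4a3, a collagen IV chain of restricted tissues, fell with -2.51 ± 0.43. Of the genes of dystroglycan and of the sugars that let it bind laminin, 1 of 16 tested rose and 9 fell. B3galnt2 and Pomgnt2, enzymes of that sugar chain, stood at -0.84 ± 0.15 and -1.36 ± 0.26, Dag1 itself at -0.64 ± 0.19, adjusted p = 0.0124, and only Gmppb rose (0.77 ± 0.29, adjusted p = 0.038). By library totals the dystroglycan list had 4 higher and 2 lower, so its direction rests on the scaling. All 14801 genes then had 7691 higher and 1240 lower. Of other marker lists, 2 of 5 tested rose and 0 fell for smooth muscle and pericytes, 1 of 4 tested rose and 0 fell for satellite cells, 0 of 6 tested rose and 1 fell for endothelium, 0 of 6 tested rose and 0 fell for Schwann cells and 0 of 2 tested rose and 0 fell for epithelium.

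The shares within each family, computed from TPM in each library, put the members on 1 scale and do not depend on the scaling between libraries. Lama2 held 42.7 ± 2.9% of laminin alpha TPM in p16-null DMD, 40.2 ± 4.2% in DMD and 44.3 ± 5.8% in WT muscle at 9 months (SD, n = 6, 3 and 3), a difference smaller than the spread. Itga7 held 26.1 ± 4.2% of the alpha members' TPM in p16-null DMD, 21.3 ± 1.8% in DMD and 27.9 ± 4.0% in WT muscle. Itga5 held 24.3 ± 3.9% in p16-null DMD, 36.6 ± 12% in DMD and 16.4 ± 0.88% in WT, and Itga6 15.4 ± 2.9%, 13.3 ± 3.7% and 21.5 ± 1.3% in the same groups. Itgb1 held 59.5 ± 5.9% of beta TPM in p16-null DMD, 61.0 ± 5.0% in DMD and 60.9 ± 2.0% in WT muscle. The TPM ratio of Itga5 to Itga7 averaged 1.73 ± 0.58 in DMD, 0.956 ± 0.21 in p16-null DMD and 0.5995 ± 0.11 in WT muscle. It was 1.06, 2.08 and 2.04 in the DMD libraries and ran from 0.545 to 1.094 in p16-null DMD. DMD replicate 1 thus lay within the p16-null DMD range, and Itga5 exceeded Itga7 in some p16-null DMD libraries too. These shares are descriptions and no test was made of them.

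**Figure D4:**
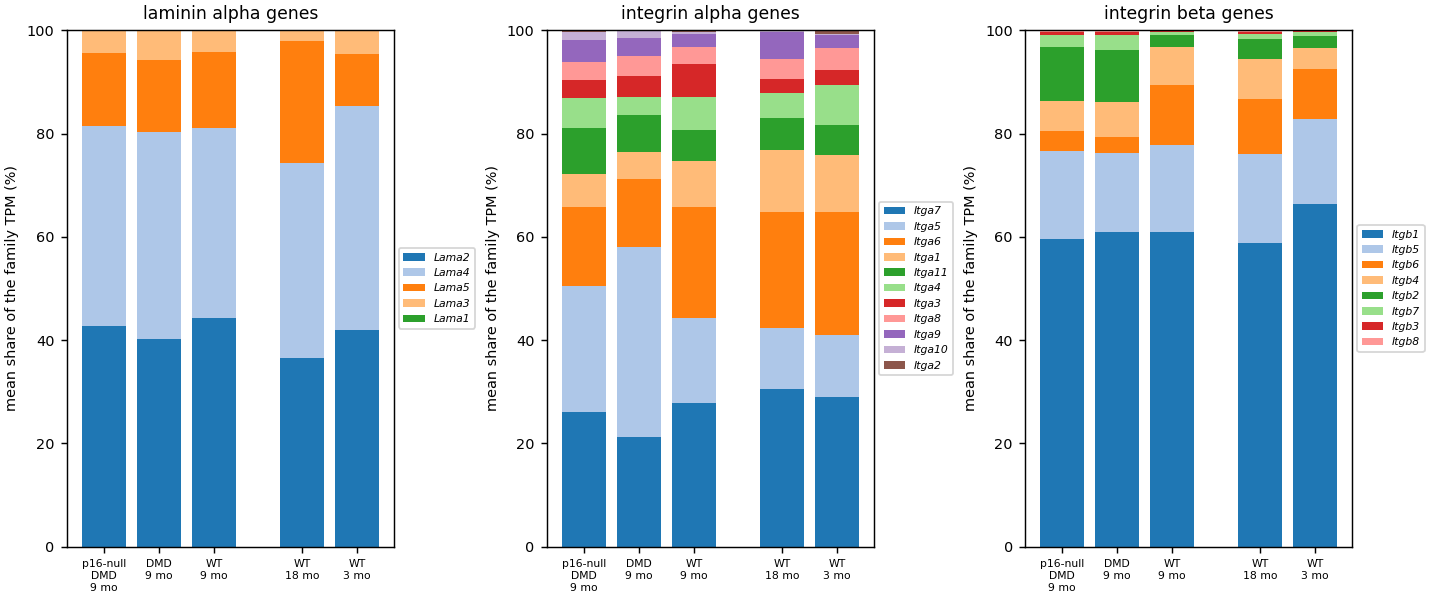
Mean share (y axis, %) of each gene in the TPM of its family, for laminin alpha, integrin alpha and integrin beta genes, in the 5 groups. Itga5 takes a larger part of integrin alpha TPM in DMD, Itgb2 a larger part of integrin beta TPM in both dystrophic groups, and Lama5 a larger part of laminin alpha TPM at 18 than at 3 months.

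Per length, the order of levels in WT muscle of 9 months began with Itgb1, Lamb2 at 44.2 ± 5.5 TPM, Lamc1 at 29.5 ± 4.7 TPM and Itgb5 at 22.7 ± 4.0 TPM. Lamc1 overlapped with Itgb5 over libraries, while Itgb1 and Lamb2 each stood apart from the next gene. From Itgb6 at 15.4 ± 1.7 TPM through Lamb1, Itga7 at 13.6 ± 1.2, Lama2 at 11.5 ± 3.5, Itga6, Itgb4 and Lama4 to Itga5 at 8.08 ± 1.1 TPM each gene overlapped with the next. In DMD muscle Itga5, at 45.4 ± 17 TPM, and Itgb2, at 43.5 ± 17 TPM, came next after Itgb5, and neighbours in this stretch overlapped.

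Libraries labelled p16-null DMD were next set against DMD libraries, to ask what changes when dystrophic muscle lacks p16. None of the 29 members passed (edgeR), and 0.00676% of all genes did, 1 gene. At an unadjusted p under 0.05 there was 1 member, Itga5, and 764 of all 14801 genes, and neither DESeq2 nor limma on TPM called a member. The log2 difference of Itga5 was -0.71 ± 0.20 (unadjusted p = 0.00261, adjusted p = 0.518), with DMD replicate 1 inside the p16-null range. Without that library the difference was -0.99 (adjusted p = 0.00794), and over all 15064 genes 85 passed, 5 higher and 80 lower. In the other 11 fits with 1 library left out Itga5 did not pass, with values up to -0.51. Over the members the log2 differences ran from -0.71 to 0.86, with a median of 0.085 beside 0.020 for all genes. For the muscle linkage, Itga7 differed by 0.20 ± 0.16, Itgb1 by -0.10 ± 0.13 and Lama2 by 0.17 ± 0.19, and a miss of the threshold does not show that the groups are alike.

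The comparison of p16-null DMD with WT muscle uses the same WT libraries as the comparison of DMD with WT, so the 2 are not independent. Here 17 members rose and 1 fell of 29, beside 50.2% of all genes, 27.5% higher and 22.7% lower. The groups did not overlap for 15 members with p16-null DMD above and 2 below, beside 45.3% of all genes (23.8% above and 21.6% below). The 15 members that rose in DMD are all among those that rose here, and Lamb1 at 0.47 ± 0.18, adjusted p = 0.0404 and Lamc1 at 0.50 ± 0.15, adjusted p = 0.0134 were added. Lama2 stood at 0.76 ± 0.19, adjusted p = 0.00464, Itgb1 at 0.80 ± 0.13, adjusted p = 0.000176, Itga5 at 1.01 ± 0.21, adjusted p = 0.00117 and Itgb2 at 3.13 ± 0.51, adjusted p = 0.00015. Itga7 was at 0.37 ± 0.16, adjusted p = 0.0611, short of the threshold. It passed in 5 of 11 settings run on all libraries, among them library totals at 0.99 (adjusted p = 0.00015) and 1 fit of all 18 libraries at 0.37 (adjusted p = 0.0491), and also without p16-null DMD replicate 1 at 0.43 (adjusted p = 0.0323). Itgb6 fell, at -0.79 ± 0.18, adjusted p = 0.00169, and did not pass by library totals at -0.19 (adjusted p = 0.37). Lamb1 lost its call without any of the 3 WT libraries or without p16-null DMD replicate 2, 4 or 5 (adjusted p up to 0.101), and Itgb8 and Itga8 lost theirs in 7 and 5 of the 12 fits. Lamc1 lost its call without WT replicate 2 (adjusted p = 0.0682).

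The comparison of WT muscle at 18 with 3 months asked what changes with age. Of 26 members tested 5 rose and 1 fell, beside 19.4% of all genes, 9.31% higher and 10.1% lower, with the members' median at 0.014 beside 0.0032. Itga2, Itga10, Itgb3 and Lama1 were removed by the filter. By library totals 7 were higher and 0 lower, beside 2609 higher and 652 lower of all 13487 genes.

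Lama5 stood at 84.2, 72.0 and 72.3 CPM at 18 months and 27.6, 30.6 and 41.3 CPM at 3 months, with no overlap, and rose by 1.21 ± 0.15, adjusted p = 8.15e-05. Its share of laminin alpha TPM was 23.6 ± 0.48% at 18 months and 10.02 ± 3.2% at 3 months (SD, n = 3 each), while that of Lama2 was 36.6 ± 2.9% and 41.9 ± 7.9% at the same ages. Lama3 stood at 5.43, 4.29 and 2.75 CPM at 18 months and 10.6, 6.62 and 8.98 CPM at 3 months, and fell, at -1.06 ± 0.31, adjusted p = 0.0255; the call was lost without WT 18 months replicate 2 or 3 or WT 3 months replicate 1 or 3 (adjusted p up to 0.103) and by library totals, at -0.83 (adjusted p = 0.0726). The level of Lama2 was 115, 95.2 and 86.5 CPM at 18 months and 129, 143 and 85.8 CPM at 3 months, with overlap (-0.26 ± 0.18, adjusted p = 0.336), and without WT 3 months replicate 3 the change was -0.46 (adjusted p = 0.0331).

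Itgb4 rose by 1.25 ± 0.13, adjusted p = 1.21e-05, with 69.4, 61.1 and 72.5 CPM at 18 months and 27.3, 29.1 and 29.3 CPM at 3 months. The Schwann cell marker sum was 58.2 to 99.0 CPM at 18 months and 93.9 to 165 CPM at 3 months, with overlap. Of the 6 markers tested 0 rose and 1 fell, with log2 fold changes from -1.22 to 0.94, and their part in the Itgb4 change was not tested. Itgb2 rose by 1.02 ± 0.23, adjusted p = 0.0056, with 11.8, 19.1 and 15.7 CPM at 18 months and 7.28, 6.71 and 9.17 CPM at 3 months, beside leukocyte marker sums of 285 to 319 and 157 to 264 CPM, and 5 of 9 leukocyte markers rose. Itgb2 did not pass when all 18 libraries shared 1 fit, at 1.01 (adjusted p = 0.205), and Itgb4 stood at 1.24 (adjusted p = 0.054) there. Itga9 rose by 1.09 ± 0.29, adjusted p = 0.0149, with 20.3, 10.6 and 10.1 CPM at 18 months and 7.90, 5.84 and 5.48 CPM at 3 months, a call lost without WT 18 months replicate 1, at 0.70 (adjusted p = 0.128), or WT 3 months replicate 2. Itgb8 rose by 1.92 ± 0.52, adjusted p = 0.0173, with 4.62, 2.79 and 3.95 CPM at 18 months and 0.532, 0.681 and 1.80 CPM at 3 months, a call lost without WT 18 months replicate 1 or 3 or WT 3 months replicate 1 or 2 (adjusted p up to 0.0877).

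The linkage genes Itga7 and Itgb1 did not pass with age: Itga7 stood at 46.1, 48.2 and 59.8 CPM at 18 months and 44.9, 56.9 and 42.9 CPM at 3 months (0.10 ± 0.15, adjusted p = 0.706) and Itgb1 at 315, 280.5 and 255 CPM at 18 months and 272, 246 and 262 CPM at 3 months (0.13 ± 0.12, adjusted p = 0.507). Itgb1 passed in 2 of 10 settings run on all libraries, with values up to 0.50, and Itga7 in 0 of 10. The muscle fibre markers summed to 69240 to 80270 CPM at 18 months and 113500 to 134900 CPM at 3 months. Of the 6 tested 0 rose and 4 fell, and their part in the Itga7 and Itgb1 values was not tested. Itga5 stood at 26.4, 29.4 and 27.9 CPM at 18 months and 24.5, 29.8 and 27.1 CPM at 3 months (0.048 ± 0.14, adjusted p = 0.851), all 6 within a narrow range. Itgb6 stood at 42.7, 36.3 and 43.5 CPM at 18 months and 31.9, 33.9 and 25.2 CPM at 3 months and Itgb5 at 67.7, 64.1 and 70.6 CPM at 18 months and 57.5, 53.0 and 45.6 CPM at 3 months; both groups were apart, as in 36.1% of all genes, and both missed the threshold (0.43 ± 0.15, adjusted p = 0.0544 and 0.38 ± 0.13, adjusted p = 0.0558). Itgb6 passed in 6 and Itgb5 in 5 of 10 settings run on all libraries, by library totals at 0.66 (adjusted p = 0.00938) and 0.61 (adjusted p = 0.00754), and Itgb5 also without WT 3 months replicate 1 at 0.46 (adjusted p = 0.0409). The remaining members ran from -0.67 for Itga4 to 0.65 for Itgb7 and did not pass in the main fit. Lamc1 and Itga4 each passed in 1 of 10 settings run on all libraries. With 1 library left out (edgeR), Lamc1 passed once (adjusted p = 0.003) and Lamb2 once (adjusted p = 0.0462). Of 10 laminin genes tested, 5 lay wholly below at 18 months and 1 wholly above, beside 18.5% and 17.6% of all genes.

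The comparisons of DMD with WT and of 18 with 3 months share no library. Itga9, Itgb2, Itgb8 and Lama5 rose in both, while Lama3 rose in DMD and fell with age. The matching overlap over all genes was not counted, so these names do not show a trait of the members. The age calls of Itga9, Itgb2, Itgb8 and Lama3 did not hold in every fit, as given above. Nor did the DMD calls of Itgb8 and Lama5. The difference between the 2 changes was tested in 1 fit of all 18 libraries. It passed for 10 of 29 members, 9 higher in DMD and 1 lower, and for 6 without WT 9 months replicate 2. Of all genes 27.6% passed, 13.8% higher and 13.8% lower. Lama3 had the largest difference among the laminins, 2.14 ± 0.42, adjusted p = 0.00108, followed by Lama4 at 1.12 ± 0.21, adjusted p = 0.000603. Itga5 differed by 1.68 ± 0.31, adjusted p = 0.000587, Itgb1 by 0.77 ± 0.20, adjusted p = 0.00669, and Itgb6, which was lower in DMD but not with age, by -1.55 ± 0.27, adjusted p = 0.000424. Itga7 differed by 0.077 ± 0.24, adjusted p = 0.852 and did not pass.

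**Figure D5:**
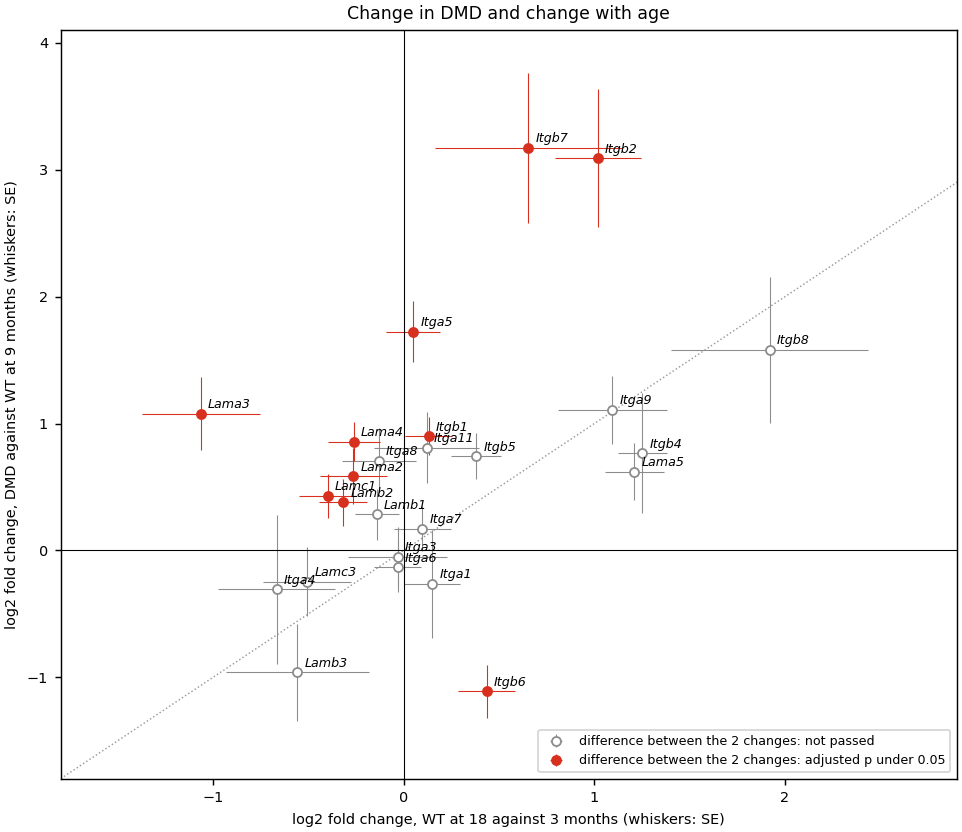
Log2 fold change in DMD against WT at 9 months (y axis) against that in WT at 18 against 3 months (x axis) for 25 members tested in both, with SE whiskers. Filled points are those whose 2 changes differed at an adjusted p under 0.05. Itga5, Itgb7 and Lama3 lie above the dotted line of equal change and Itgb6 below it, while Itga9 and Itgb8 lie near it.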

How the data were processed

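RNA from frozen tibialis anterior sections was made into TruSeq libraries, per the labels' protocols. The submitters' processing notes list RSEM 1.3.3, STAR 2.7.10b, FastQC and Trimmomatic, and the build mRatBN7.2. The authors deposited RSEM expected counts (estimated counts, not whole where reads fit several transcripts) and length-scaled TPM per gene; neither strand setting nor annotation is stated there, so overlapping antisense genes cannot be told apart. Counts were rounded and tested with edgeR 4.0.16 (quasi-likelihood, filterByExpr, TMM, Benjamini-Hochberg over all genes) in R 4.3.3. The 12 libraries of 9 months shared 1 fit (14801 genes), the WT libraries of 3 and 18 months another (13487), and all 18 libraries 1 more (14982) for the difference between the changes. The SE of a change is its size over the root of F. Alternatives were DESeq2 1.42.0, limma 3.58.1 on log2(TPM + 1) or (TPM + 0.1), RLE scaling, library totals, other filters, other fits, the replicate block and each library left out. Scripts were tested on simulated data. Each SE and SD includes the spread among libraries, while the floor of up to 3 counts for a count of 0 covers counting error only. Promoter sequences are from RefSeq (GRCr8). Figures were drawn with matplotlib 3.10.9. Values per library are given for Itga7, Itgb1 and Lama2, for up to 3 members of each role with the smallest p in DMD against WT, and for members called with age; from other lists up to 3 genes with the smallest p are named, plus Itgam and Itgal. Tln1, Tln2, Npnt, Spp1, Tnc, Dag1, Gmppb and Col4a3 lie outside that rule and were named after their values were seen. A few values that this rule would name are not reported here. The members and lists were chosen with earlier results of these data known.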

Additional observations from a re-analysis of the deposited data

Results flagged for a closer look

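Itgb7 in p16-null DMD replicate 1 stood apart, at 33.1 CPM, farther from the other 5 libraries than the spread of the group allows. About 1 in 20 groups of values is marked so by chance, and 32 were looked at. Without that library Itgb7 in p16-null DMD against WT was 2.46 (adjusted p = 0.000105), and Itgb2 2.74 (adjusted p = 3.97e-05).

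For 10 of 29 members the change in DMD differed from the change with age in a test of the difference itself (edgeR, 18 libraries). Of all genes, 27.6% passed the same test. The log2 differences, DMD minus age, were 1.68 for Itga5, 0.77 for Itgb1, 2.08 for Itgb2, -1.55 for Itgb6 and 2.52 for Itgb7. Among laminins they were 0.85 for Lama2, 2.14 for Lama3, 1.12 for Lama4, 0.70 for Lamb2 and 0.83 for Lamc1. With each library left out in turn, Itga5, Itgb1, Itgb6, Lama3, Lama4 and Lamc1 kept the call every time, while Itgb2, Itgb7, Lama2 and Lamb2 did not.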

How the results depend on the processing

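The count of members called in DMD against WT was 17, and ran from 12 to 23 over the alternatives. It was 12 with the replicate number as a block, 22 by library totals and 12 to 17 with 1 library left out. Over all 14801 genes 7142 were called in the main fit, 6476 with the block and 8931 by library totals. Those for p16-null DMD against DMD ran from 0 to 1 with 1 library left out, and 0 were called under every other alternative. Those for the difference between the changes ran from 6 to 10 with 1 library left out and up to 13 by library totals. For p16-null DMD against WT the alternatives gave 14 to 22, and for 18 against 3 months 4 to 9. Same-numbered libraries did not clearly deviate together (r from -0.222 to 0.13), and the main fits used no pairing. A low r cannot exclude a small effect shared by same-numbered samples. By library totals and TPM the sign of Itga6 in DMD turned, to 0.52 by library totals, 0.59 by log2(TPM + 0.1) and 0.56 by log2(TPM + 1), and in p16-null DMD against WT to 0.58, 0.71 and 0.66. Itga3 in DMD turned to 0.68 and 0.56 on the TPM scales. The cause was not tested. Shares by estimated counts in place of TPM, which ignores length, were for Lama2 48.9% in p16-null DMD, 46.8% in DMD, 50.2% in WT at 9 months and 40.5% at 18 months, and for Itga7 19.8% in p16-null DMD, 15.95% in DMD, 21.3% in WT at 9 months, 23.2% at 18 months and 22.1% at 3 months. Depth limits Lama1, Itga2, Itga10, Itgb3 and Itgb8, whose levels were a few CPM or less.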
